A study of Microcebus murinus with 18 samples.

Results

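Metallothioneins are small cysteine-rich proteins that bind zinc and copper, and 8 of their genes are described here in the temporal cortex of the grey mouse lemur, Microcebus murinus: MT1E, MT1F, MT1G, MT1H, MT1M, MT1X, MT2A and MT3. They were chosen by gene symbol, as every probe set of the human Affymetrix HG-U133 Plus 2.0 array annotated to one of these genes. That gave 12 of the 54613 probe sets that are not controls. Of these, 10 probe sets of 7 genes, among 14567 on the array, passed the filter on low signal, which asked for a signal of at least 150 on 3 or more of the 18 arrays. The family was singled out because its higher signals in the old group of this series were already known. The differences between the 3 groups are therefore given as a description and support nothing.

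RNA from 18 captive-born animals was hybridized, 1 array for each animal. The young adult group held 6 animals (4 females and 2 males) and the old group 10 healthy animals (7 females and 3 males). The AD-like group held 2 old females with ß-amyloid plaques in the brain and an atrophied cortex, so that both sexes were present in the other groups only. The labels give no treatment, genotype or strain for any group. Each signal is a linear intensity scaled by the array software, and differences are given on the scale of log2(signal + 16), with the standard error (SE) from limma.

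Classical metallothioneins of the MT1 and MT2 classes are induced by zinc through the transcription factor MTF1, by glucocorticoids and by oxidative stress, and in the brain they are made mainly by astrocytes. MT3 is the brain-type form, first known as a growth inhibitory factor, is also found in neurons rich in zinc, and responds little to metals. MT4 belongs to stratified epithelia. The genes lie side by side and are close in sequence, so probes for one may bind the transcripts of another.

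This matters for reading the array. All 9 kept probe sets of MT1 and MT2 genes have the suffix _x_at, which marks probes that can also match other sequences, and only the MT3 probe set (205970_at) is of the unique type. Most of the human genes also have no named counterpart in the lemur: between BBS2 and NUP93, the RefSeq annotation of the lemur lists 8 protein-coding genes, of which only MT3 and MT4 have a symbol and the other 6 carry locus numbers. Of the 8 genes described, 1 has a lemur symbol. A human isoform name below is thus the name of a probe set, and several of them may read the same lemur transcript. Probe sets were compared between animals and never with each other in level.

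The arrays themselves differed in brightness, which touches every comparison of these bright genes. The 99th percentile of the signal ran from 1592 to 4128, and the mean signal from 151 to 236. The 5 arrays with a mean of 151 to 164 were young adult M1 and M2, old M1 and M2, and AD-like F2, and their 99th percentiles (1592 to 2163) lay below those of the other 13 arrays (2225 to 4128). On 4 of these 5 arrays, all but young adult M1, the spiked poly-A control RNA (dap, 3′ probe set) gave signals of 2.45 to 19, against 334 to 5719 on the other 14. Among the 1584 kept probe sets with a mean signal of at least 1000, which include 7 of the metallothionein probe sets, 86.3% had a higher fitted level with age (old against young adult), with a median log2 difference of 0.26. No array duplicated another: the highest rank correlation of any of the 153 pairs was 0.89.

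Among the MT1 genes, MT1G had one of the clearest age differences. Its probe set 204745_x_at had signals of 1310, 2110, 1017 and 657 in the young adult females and of 422 and 810 in the young adult males. In the 10 old animals the lowest signal was 860, the median 2216 and the highest 3507, and the 2 AD-like females had 1603 and 1018. Of the old animals, 9 lay above the young adult median and 6 above every young adult, so the groups overlapped. The low old animal was M1, one of the arrays without the poly-A control. The difference was 1.12 (SE 0.30), a 2.17-fold higher level in old animals.

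MT1H (206461_x_at) followed the same order. The 6 young adults had signals of 1194 to 3730 with a median of 1658, and the old animals of 1558 to 5878 with a median of 3905. The AD-like females had 3351 and 2079. Old animals were higher by 1.03 (SE 0.29), with 5 of 10 above every young adult.

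MT1X showed the widest spread of the family. With 208581_x_at the young adult signals were 7172, 13397, 2912 and 2408 in females and 1855 and 1935 in males. The old animals ran from 1504 to 20777 with a median of 11930, and the AD-like females had 6854 and 2030. Young adults F1 and F2 thus lay inside the old range, and old M1 lay below every young adult. The difference of 1.35 (SE 0.50) was a 2.54-fold change, and the SD within the young adult group, on the log2 scale, was 1.16.

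The second MT1X probe set, 204326_x_at, averaged 285 ± 134 (SD, n = 6) in the young adult group. The mean was 462 ± 163 (SD, n = 10) with age and 258 ± 178 (SD, n = 2) in the AD-like females. Its difference between old and young adult was 0.64 (SE 0.35). Within the groups the 2 MT1X probe sets correlated weakly (r = 0.36 over 18 arrays), so they did not follow the same animals. Old F2 had a signal of 79.6 with this probe set, below all 17 other animals, and 7350 with the other one.

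The 2 probe sets of MT1F gave similar age differences from animals ranked differently. For 217165_x_at the median was 2442 (range 1185 to 4632) in young adult and 4678 (range 1290 to 7108) in old animals, and the AD-like females had 3310 and 1418. For 213629_x_at the medians were 1059 (544 to 1868) and 1576 (1202 to 2774), and the AD-like females had 1307 and 1482. Old animals were higher by 0.79 (SE 0.34) and 0.70 (SE 0.26). The 2 probe sets correlated with r = 0.29 within groups, and in 213629_x_at the brightest animal of all was old M2, whose array is among the dim ones.

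MT1E had the smallest age differences of the kept MT1 genes. Its probe set 216336_x_at had medians of 1026 (745 to 1473) in young adult and 1413 (995 to 2421) in old animals, a difference of 0.49 (SE 0.23). The other, 212859_x_at, had medians of 761 (629 to 882) and 752 (458 to 1258), a difference of 0.01 (SE 0.22). The age difference was therefore not shared by both MT1E probe sets. The AD-like females had 1331 and 881 with the first and 933 and 684 with the second.

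MT2A, the most widely expressed classical form in human tissues, had young adult signals of 4961, 9066, 1995 and 2214 in females and 1978 and 1989 in males with its only probe set (212185_x_at). Old animals ran from 1262 to 14804 with a median of 8604, and the AD-like females had 5833 and 2173. Young adults fell into a low set of 4 and the higher F1 and F2, and old F2 and M2 (2742 and 3070) stood with M1 below the other 7 old animals. The difference of 1.03 (SE 0.46) was 2.05-fold.

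MT3 moved least with age among the genes with 1 kept probe set. Its signals were 1170, 1389, 864 and 607 in young adult females and 525 and 828 in young adult males. In old animals they ran from 668 to 1820 with a median of 1034, and the AD-like females had 1095 and 649. The ranges overlapped widely, and 2 of 10 old animals lay above every young adult. The difference was 0.27 (SE 0.25), about as large as its own error.

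**Figure D1:**
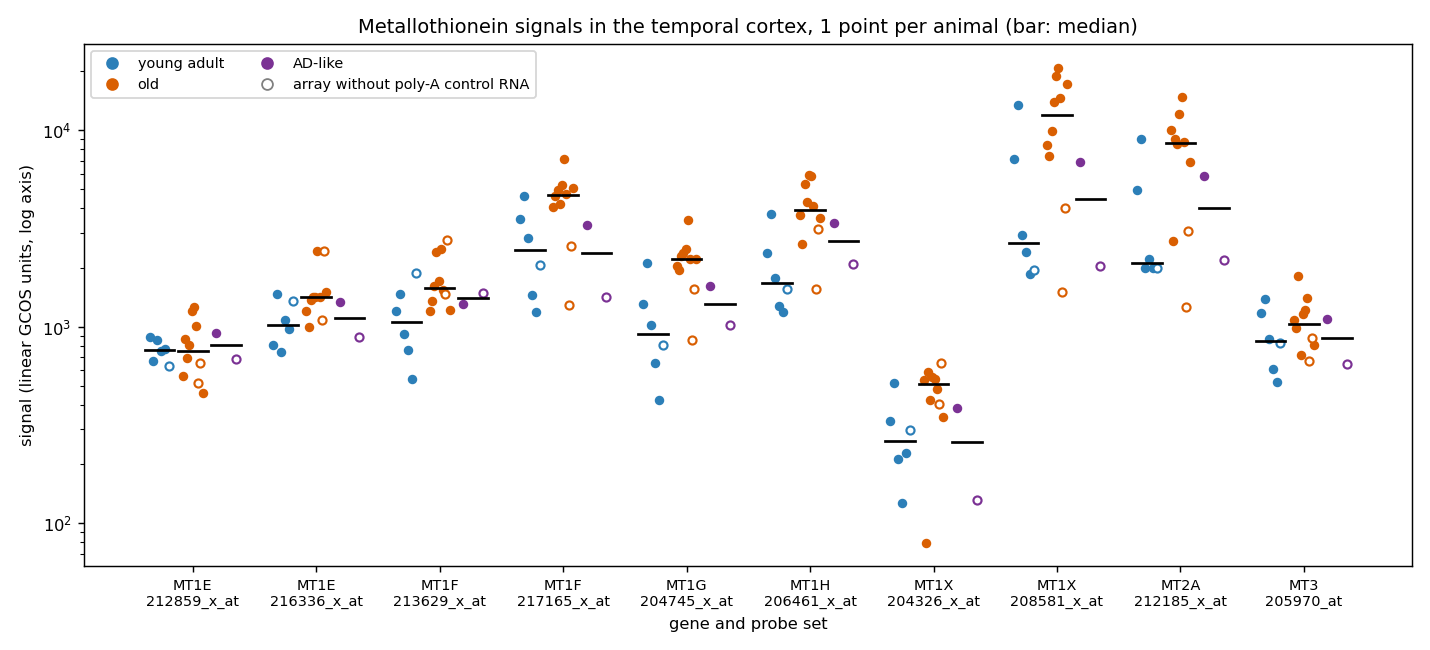
Signal of each kept metallothionein probe set (linear units on a log axis) in every animal, with 1 point for each of 6 young adult, 10 old and 2 AD-like animals and a bar at the group median; open circles are the 4 arrays without poly-A control RNA. The groups overlap for every probe set, the medians of MT1G, MT1H, MT1X, MT2A and MT1F are higher in old animals, and old M1 (open) is the lowest old animal for MT1X 208581_x_at (1504) and MT2A (1262).

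The remaining probe sets gave no usable level. MT1M (217546_at) had signals from 1.75 to 76.3 over all animals, and the second MT1G probe set (210472_at) from 4.05 to 74.6, and neither passed the filter. Neither carries the _x_at suffix. Outside the 8 genes, the probe set of MT1HL1 (MT1H-like; 211456_x_at) averaged 6063 ± 3526 (SD, n = 6) in young adults and 10561 ± 4085 (SD, n = 10) with age. MT4 (217395_at) had means of 12 and 13.7.

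Across the family, all 10 kept probe sets had a higher fitted level with age, by 0.01 to 1.35, with a median of 0.74 against 0.03 over all kept probe sets. Of all kept probe sets 53.9% were higher, and of the 1584 bright ones 86.3%. At an unadjusted p under 0.05, 7 of 10 were higher, against 3.88% of all kept probe sets, and after Benjamini-Hochberg adjustment over all 14567 none was, against 0% of all. Since this contrast chose the family, nothing is read from these counts. The count was 3 without young adult M1 (2.24% of all), 3 with a replicate block (4.67%) and 4 with quantile normalization (3.42%). Without the 5 dim arrays it was 7 (2.92%), and the differences of MT1G, MT1X 208581_x_at and MT2A were 1.00, 1.35 and 1.14. Quantile normalization, which gives every array the same distribution, took the median of all 1584 bright probe sets from 0.26 to 0.02 and these 3 differences to 0.97, 0.99 and 0.66. The part of array brightness in what remained was not tested.

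**Figure D2:**
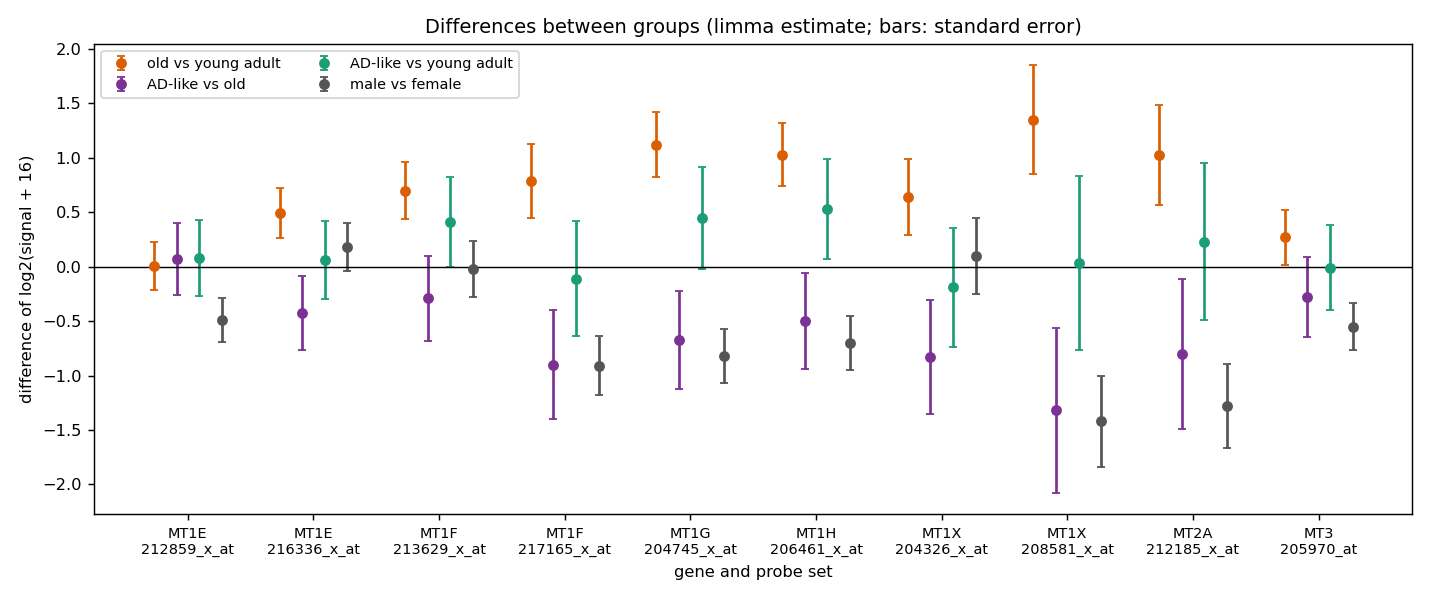
Estimated difference of log2(signal + 16) for each kept probe set in 4 comparisons, with bars of 1 standard error from limma. Old against young adult lies between 0.01 and 1.35, AD-like against old between -1.32 and 0.07, AD-like against young adult between -0.19 and 0.53, and male against female between -1.42 and 0.18.

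MT3 and the classical genes could be set against each other within an animal as a difference of log2 signals, which says how that gap varied and nothing of which gene was more abundant. MT3 minus the mean of the 6 MT1 and MT2 genes (each by its brightest probe set) was -1.14 ± 0.26 (SD, n = 6) in young adults, and -1.84 ± 0.57 (SD, n = 10) with age. It was -1.5 and -1.2 in the AD-like females. Old F4, F6 and M3 had the widest gaps (-2.59, -2.49 and -2.42), and old M1 the narrowest (-0.87). All young adults (-1.63 to -0.89) lay inside the range of the old animals. This gap was derived from the same contrast and was not tested.

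The AD-like animals lay lower than the old ones for 9 of 10 probe sets, with a median log2 difference of -0.59 against -0.02 over all kept probe sets. Lower levels were common among bright probe sets in general. Of the 1584 bright ones 19.1% were higher in the AD-like animals, against 48.1% of all kept probe sets. MT1X 208581_x_at was lower by 1.32 on the log2 scale (SE 0.76), MT1F 217165_x_at had a difference of -0.90 (SE 0.50), MT2A of -0.80 (SE 0.69), MT1G of -0.67 (SE 0.45) and MT3 of -0.28 (SE 0.37). In limma none of the 10 had an unadjusted p under 0.05 in the lower direction, against 3.82% of all kept probe sets, or differed after adjustment, against 0.00686%. The methods' t-test on linear signals likewise gave 0 of 10 after adjustment.

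The AD-like group rested on 2 unlike arrays. AD-like F1, whose array was not among the dim ones (99th percentile 3078), had MT1X, MT2A and MT1G signals of 6854, 5833 and 1603. F2, on a dim array (2089) without the poly-A control, had 2030, 2173 and 1018. Against the old group, F2 alone gave -2.20 for MT1X 208581_x_at and -1.51 for MT2A, and F1 alone gave -0.45 and -0.10. The median over the family was -0.92 with F2 alone and -0.15 with F1 alone. Bright probe sets in general had a median difference of -0.28 between the AD-like and the old arrays, and with quantile normalization the family's values for MT2A and MT3 were -0.45 and -0.09. With 2 animals, of which 1 had a dim array, animal and array cannot be told apart.

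The old group held males and the AD-like group none, and 2 of the 3 old males were on dim arrays. Among females only, 4 of 10 probe sets had an unadjusted p under 0.05, all with the lower level in the AD-like animals, against 9.68% of all kept probe sets in that direction, and none passed adjustment. With sex as a covariate the count was 3, against 8.82%. The old females were all on arrays with the poly-A control, with 99th percentiles of 2945 to 4128. The array of AD-like F2 lacked that control and had a 99th percentile of 2089. The females-only fit thus held no dim old array, and pathology and array brightness cannot be told apart in it.

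Set against young adult animals, the differences of the AD-like females ran from -0.19 to 0.53 with a median of 0.07, and 7 of 10 were above 0. Of all kept probe sets 51.3% were above 0. MT1H (0.53, SE 0.46) and MT1G (0.45, SE 0.47) had the highest values, and MT1X 208581_x_at (0.03, SE 0.80) and MT3 (-0.01, SE 0.39) were near 0. None differed at an unadjusted p under 0.05, against 4.24% of all kept probe sets, or after adjustment, against 0%. The direction turned on the animal: with AD-like F1 alone all 10 probe sets were higher than in young adults (0.30 to 0.94, median 0.51), and with F2 alone 3 of 10 were (median -0.31). This comparison is the sum of the other 2 and shares their animals. With SEs of 0.35 to 0.80, these values do not show that the groups were alike.

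Sex had no part in the choice of the family, and was compared over the 16 young adult and old animals with group as a covariate. For MT1X 208581_x_at the 11 females had signals from 2408 to 20777 with a median of 9902, and the 5 males had 1855, 1935, 1504, 4001 and 17116. For MT2A the females ran from 1995 to 14804 with a median of 8734, and the males had 1978, 1989, 1262, 3070 and 6869. In both, 3 of the 5 males lay below every female, and old M3 was the highest male. The male difference was -1.42 (SE 0.42, adjusted p = 0.0286) for MT1X and -1.28 (SE 0.39, adjusted p = 0.0311) for MT2A in limma over all kept probe sets.

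MT1F 217165_x_at (-0.91, SE 0.27, adjusted p = 0.0304) and MT1G (-0.82, SE 0.25, adjusted p = 0.0336) also passed that threshold in limma. At an unadjusted p under 0.05, 7 of 10 probe sets were lower in males, MT3 (-0.55, SE 0.22) among them, against 19.7% of all kept probe sets. After adjustment 4 of 10 differed, against 13.7% of all. The second probe sets of MT1X (0.10), MT1F (-0.02) and MT1E (0.18, with 216336_x_at) were near 0 or above it.

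The sex difference moved with the arrays. The 3 young adult and old arrays without the poly-A control were all of males, and all 11 females had it. With that control as a block, 2 of 10 probe sets were lower in males at an unadjusted p under 0.05, near the 13.9% of all kept probe sets, and none after adjustment. Leaving those arrays out gave the same counts (13.5% of all), with MT1X at -0.46 (adjusted p = 0.671) and MT2A at -0.60 (adjusted p = 0.555) in limma, and it left 2 males. Of the bright probe sets as a whole, 6.82% were higher in males and their median difference was -0.69, against -0.82 for the 7 metallothionein probe sets among them and -0.63 for all 10. With quantile normalization no metallothionein probe set passed adjustment, and MT1X and MT2A stood at -0.77 and -0.64. Sex and array brightness cannot be told apart here.

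The age difference was also taken within each sex. It was 1.01 in females and 1.27 in males for MT1G, 1.30 in both for MT1X 208581_x_at, and 0.26 and 0.24 for MT3. MT1E 212859_x_at had 0.17 in females and -0.36 in males. MT2A had 1.18 in females and 0.59 in males, with a difference between the sexes of -0.59 (SE 0.80, adjusted p = 0.989, limma interaction). In the interaction 0 of 10 probe sets passed an unadjusted p under 0.05, against 4.87% of all, and 0 passed after adjustment, against 0%. Single animals moved the interaction from -0.93 to 0.82 for MT1X 208581_x_at (without old M3 and without old M1) and from -1.19 to 0.02 for MT2A (without the same animals). The male arm held 3 old and 2 young animals, and with SEs of 0.40 to 0.89 these values do not show that the sexes were alike.

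Within groups, 5 of the MT1 and MT2 probe sets had closely related levels from animal to animal, and the others less so. After group means were removed, the correlations of log2 signals over the 18 arrays for the 45 pairs of kept probe sets ran from 0.04 to 0.96 with a median of 0.46. MT1G correlated with MT1F 217165_x_at at 0.96, with MT1H at 0.92 and with MT1X 208581_x_at at 0.91, and MT2A with MT1H at 0.94. MT3, on probes of the unique type, correlated with these 5 at 0.65 to 0.79. The lowest median correlations with the rest belonged to MT1F 213629_x_at (0.29), MT1E 216336_x_at (0.35) and MT1E 212859_x_at (0.41). The 14 arrays with the poly-A control gave a median of 0.60. These values describe arrays that also share their brightness, and for the _x_at probe sets possibly the same transcripts.

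**Figure D3:**
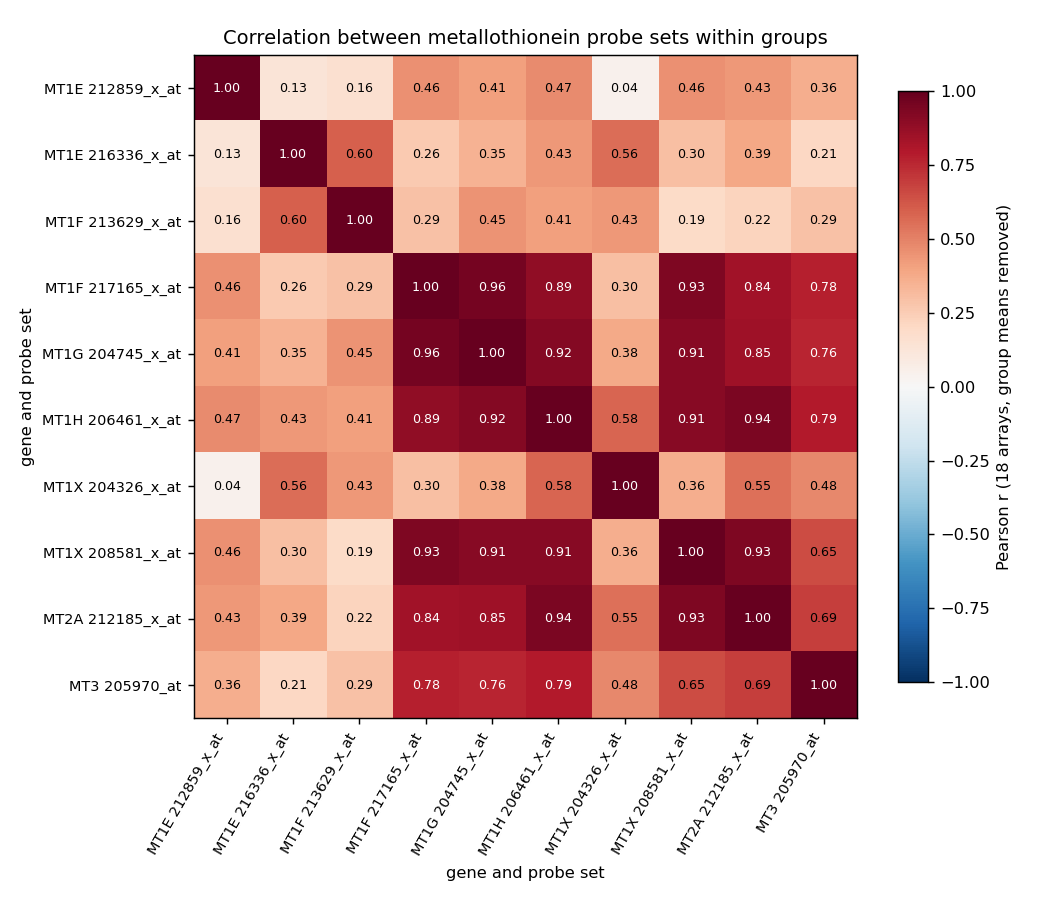
Pearson correlation between the 10 kept metallothionein probe sets over the 18 arrays (log2 signals, group means removed), with the value in each cell. A block of 5 probe sets (MT1F 217165_x_at, MT1G, MT1H, MT1X 208581_x_at and MT2A) has values from 0.84 to 0.96. The second MT1F, the second MT1X (204326_x_at) and both MT1E probe sets have none above 0.60 with any other.

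The level in each animal followed the brightness of its array. Over the 18 arrays, the mean log2 signal of the MT1 and MT2 genes correlated with the log2 of the 99th percentile at r = 0.80 (rho = 0.67), and MT3 at r = 0.82 (rho = 0.78). Without the 2 arrays farthest from the median brightness, r was 0.72 and 0.79 over 16 arrays, and with group means removed it was 0.77 and 0.80 over all 18. Both measures come from the same array. Animals with arrays of like brightness differed in either direction. Old F4 and M3 (99th percentiles of 2945 and 2855) had MT1 and MT2 means of 12.11 each against 10.72 in young adult F3 (2792). Young adult F2 (3729) had 12.08 against 11.46 in old F2 (3678) and 12.12 in old F3 (3658). Young adult M2 (1969) had 10.61 against 10.29 in old M1 (2089). In young adult F1 (3568) the value was 11.36, against 12.12 in old F3 and 12.76 in old F6 (3472). Young adult F4 (2225) had 10.45 against 11.4 in old M2 (2163). These animals are examples, and the age difference at like brightness was not tested.

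**Figure D4:**
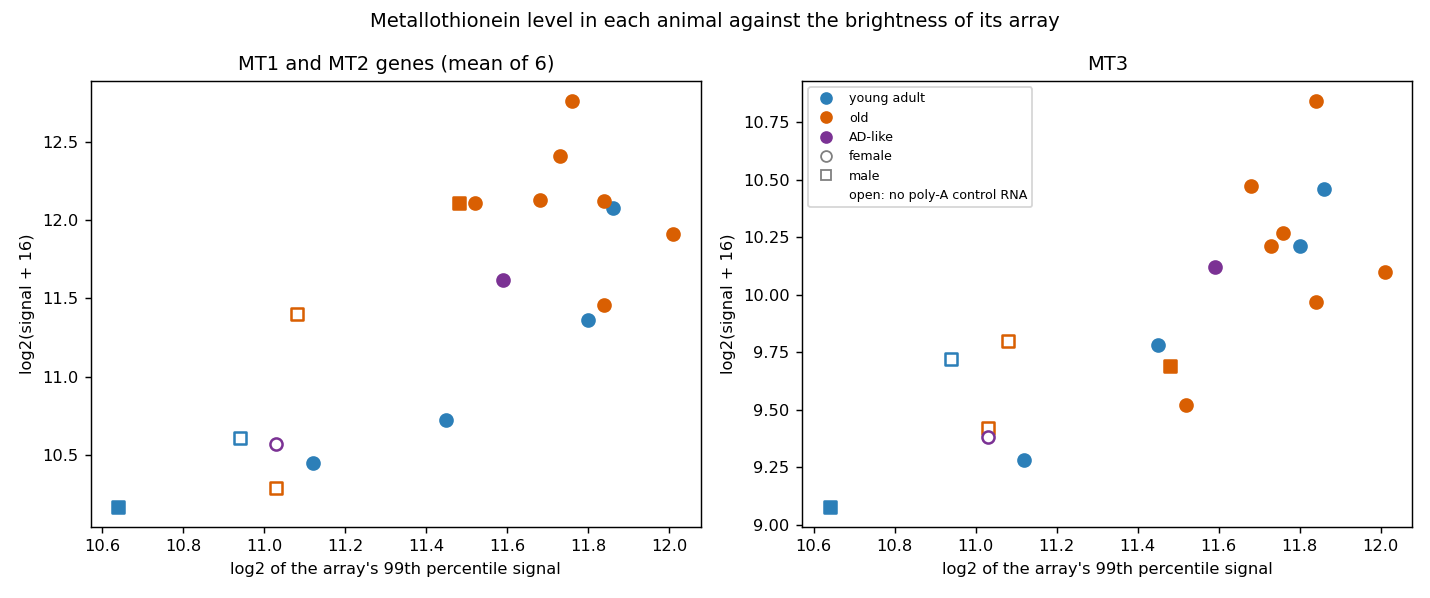
Mean log2(signal + 16) of 6 MT1 and MT2 genes (left) and of MT3 (right) in each animal against the log2 of the 99th percentile signal of its array; circles are females, squares males, and open symbols the 4 arrays without poly-A control RNA. Both rise with brightness (r = 0.80 and 0.82 over 18 arrays), and 4 of the 5 males lie at the dim end.

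The genes whose pattern was most like that of a metallothionein were sought by the correlation over 18 arrays with group means removed. The candidates were the 12424 kept probe sets with 1 gene symbol that is not a metallothionein. For MT1G these were CHMP2A, a subunit of the ESCRT-III membrane-scission complex (r = 0.95), the ATP synthase subunits ATP5MG (0.94) and ATP5MC3 (0.92), the translation factor EIF1B (0.93) and the mRNA-binding protein CPEB2 (0.93). For MT2A they were the nuclear import receptor KPNB1 (0.87), the histone deacetylase complex protein PHF21A, the ribosomal protein RPS4X, the RNA polymerase II subunit POLR2G and DERL2, which acts in the degradation of misfolded proteins (0.86 each). The median r over all candidates was 0.07 for MT1G and 0.06 for MT2A, and the 95th percentile was 0.70 and 0.65. No candidate exceeded the highest value among the metallothioneins themselves (0.96 and 0.94).

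For MT3 they were the oxygen sensor EGLN1 (0.93), the RNA-binding protein NONO (0.91), the histone variant H2AZ1, the membrane protein ITM2B and the actin-severing CFL2 (0.90 each). As many as 128 probe sets of other genes correlated with MT3 more closely than any metallothionein did (at most 0.79). The median r over all candidates was 0.11 for MT3, and the 95th percentile was 0.69. Before group means were removed the same 5 genes had r of 0.88 to 0.93. On the 14 arrays with the poly-A control the values were 0.89 to 0.93 for MT3, 0.90 to 0.93 for MT1G and 0.71 to 0.82 for MT2A. The named genes had mean signals of 1527 to 11415 for MT1G and 1194 to 10671 for MT3, so all were bright. For MT2A they had 113 (DERL2) to 4130 (RPS4X). Bright probe sets share the brightness of their array, and its part in these correlations was not tested.

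Metal handling genes other than the metallothioneins were read from a list. Of 32 listed genes (MTF1, zinc transporters of the SLC30 and SLC39 families, copper transporters and chaperones), 16 had a kept probe set. Of these, MTF1, the zinc-sensing activator of metallothionein genes, had the 1 unadjusted p under 0.05 and a higher level with age (1.04, SE 0.39), from a mean signal of 247 ± 180 (SD, n = 6) to 416 ± 144 (SD, n = 10). That is 1 of 16, against 3.88% of all kept probe sets. The next smallest p-values belonged to SLC39A13 (0.61, SE 0.32) and SLC30A7 (0.61, SE 0.33), both transporters of the secretory pathway. The median of the list was 0.17, against 0.03 over all kept probe sets. No gene of the list passed an unadjusted p under 0.05 between AD-like and old animals, where SLC30A2 (0.98, SE 0.50), SLC39A3 (-0.57, SE 0.53) and SLC39A6 (0.26, SE 0.33) came first. None passed adjustment in either comparison.

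Of 12 glucocorticoid-responsive genes 11 were kept, and 1 passed an unadjusted p under 0.05 with a higher level with age, the transcription factor ZBTB16 (0.79, SE 0.32). That is 1 of 11, against 3.88% of all kept probe sets. NFKBIA, the inhibitor of NF-kB, had 0.65 (SE 0.37) and TSC22D3 had 0.38 (SE 0.25), while FKBP5, a classical target of the receptor, had -0.29 (SE 0.33). Between AD-like and old animals the phosphatase DUSP1 was lower (-1.27, SE 0.45) at that threshold, and ZBTB16 (-0.96, SE 0.48) and CEBPD (-0.40, SE 0.44) followed. DUSP1 was the 1 of 11 that passed, against 3.82% of all kept probe sets in that direction. The list medians were 0.23 and -0.15, against 0.03 and -0.02 over all kept probe sets, and none passed adjustment.

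Of 12 NRF2 target genes, which answer to oxidative stress, 8 were kept. The thioredoxin gene TXN passed an unadjusted p under 0.05 with a higher level with age (0.66, SE 0.23), from a mean signal of 2286 ± 655 (SD, n = 6) to 3555 ± 821 (SD, n = 10). That is 1 of 8, against 3.88% of all kept probe sets. PRDX1 (0.35, SE 0.22) and NQO1 (0.23, SE 0.32) did not pass, nor did TXN (-0.56, SE 0.35), TXNRD1 (-0.76, SE 0.52) or GSR (0.45, SE 0.39) between AD-like and old animals. The list medians were 0.11 and -0.15, against 0.03 and -0.02 over all kept probe sets. None passed adjustment.

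Markers of the cells that a piece of cortex holds were read beside these values. Of 11 astrocyte markers 9 were kept and none passed an unadjusted p under 0.05 in either comparison; the smallest p-values between old and young adult animals belonged to ALDH1L1 (-0.61, SE 0.36), NDRG2 (-0.81, SE 0.52) and GLUL (-0.75, SE 0.55), and between AD-like and old animals to ALDOC (-0.59, SE 0.41), SLC1A2 (-0.62, SE 0.45) and ALDH1L1 (0.70, SE 0.53). The astrocyte list had no common direction with age: 5 of the 9 kept markers had a positive difference, and the list median was 0.09. Between AD-like and old animals 4 of the 9 had a positive difference, with a median of -0.12. Summed astrocyte-marker signal ran from 11658 to 36741 in young adult, 10289 to 41300 in old and 13731 to 17542 in AD-like animals. The defining markers GFAP and S100B had mean signals of 59.4 and 10.3 and were not kept, so astrocyte content was read from the other genes only. Neuron markers (7 of 8 kept, summed signal 15428 to 57768 in young adult, 34247 to 58061 in old and 23178 to 50021 in AD-like animals) had medians of 0.38 and -0.10, again with none at an unadjusted p under 0.05. The medians over all kept probe sets were 0.03 and -0.02. The kept neuron markers were bright (mean signals of 1150 to 24012), and the medians over all bright probe sets were 0.26 and -0.28. Of 6 microglia markers none was kept. Oligodendrocyte (5 of 6 kept), endothelial (3 of 6) and blood (1 of 4) markers likewise had none at an unadjusted p under 0.05. The part of cell composition in the metallothionein differences was not tested, and in whole tissue more cells of a type and more RNA per cell cannot be told apart.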

How the data were processed

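Temporal cortex RNA of 18 lemurs was measured on human HG-U133 Plus 2.0 arrays. The intensity values deposited by the authors are linear signals from GCOS 1.2, and each array's 2% trimmed mean equals 100 in the files. Detection calls were not used. The number of arrays limits the precision. Replicates are separate animals.

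Probe sets with a third-highest signal of at least 150 were kept (14567), of which 12435 had 1 gene symbol, 576 several and 1556 none; no probe set of several genes included a metallothionein. Signals were transformed to log2(signal + 16) and tested with limma 3.58.1 (trend and robust) in R 4.3.3, with Benjamini-Hochberg adjustment over all kept probe sets and a threshold of 0.05. The 3 groups were fitted together, and sex over the 16 young adult and old arrays. Brightness classes (mean signal of at least 1000, dim arrays with a mean under 170) were set after seeing the data. Poly-A control was called absent under a signal of 100.

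Every probe set of the 8 genes is reported. For MT1G, MT2A and MT3 the 5 genes with the highest within-group correlation are named, and of each list up to 3 genes with the smallest p in old against young adult and in AD-like against old animals. FKBP5, MT1HL1, MT4, GFAP and S100B were named after their values were seen. The members and the lists were chosen with earlier results of these data known. Alternatives were other offsets, quantile normalization, median centring, no filter, limma without trend, the methods' t-test, sex or poly-A control as a covariate, a replicate block and leaving out single animals. The fit was checked on simulated data. Protein and probe sequences were not used here.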

Additional observations from a re-analysis of the deposited data

Results flagged for a closer look

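Old F2 had a signal of 79.6 for MT1X 204326_x_at, and on the log2(signal + 16) scale its gap to the next old animal was 0.686 of the range of the 10 old animals, which is far from the others by Dixon's criterion. On the linear signals (348 in the next animal, 657 in the highest) the same ratio lay at the edge of that criterion. Of 20 sets of a probe set and a group examined (the 10 kept probe sets in the young adult and the old group), this was the 1 that met it, and chance alone marks about 1 in 20.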

How the results depend on the processing

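The count of metallothionein probe sets higher with age at an unadjusted p under 0.05 was 4 with quantile normalization (3.42% of all kept probe sets). It was 3 with a replicate block (4.67%). With single animals left out it ran from 3 to 8, with 4 without old F6 or young adult F4 and 3 without young adult M1 (2.24%). Over these fits, 520 to 1282 of all 14567 kept probe sets had an unadjusted p under 0.05 in either direction. The family median stayed between 0.54 and 0.92 over the 13 other settings, and no setting gave a probe set after adjustment. For AD-like against old animals, the lower count was 3 with sex as a covariate (8.82% of all kept probe sets) and 4 in females only (9.68%). It was 3 with a replicate block, where 2509 of all 14567 had an unadjusted p under 0.05 in either direction. Among the fits without 1 old animal, the lower count was 2 without old M1 and 1 without old F2 (885 and 634 of all in either direction). The AD-like animals moved the values more. The family median was -0.92 without AD-like F1 and -0.15 without AD-like F2, and MT3 was -0.65 and 0.09. For male against female, the count of probe sets lower at an unadjusted p under 0.05 was 1 with quantile normalization and 4 with the methods' t-test. In these 2 settings 3573 and 4481 of all 14567 kept probe sets passed in either direction. The count was 2 without the arrays lacking the poly-A control (13.5% of all) and 2 with that control as a block (13.9%). With single animals left out it was 4 to 7, and 3472 to 5076 of all passed in either direction. The count after adjustment was 0 with quantile normalization (747 of all 14567 kept probe sets) and 6 with median centring (2374). It was 1 without the filter (1768 of 54613), 0 in limma without trend (1751) and 0 with the methods' t-test (1583). Without the arrays lacking the poly-A control the count was 0 (75), and with that control as a block 0 (82). With single animals left out the count after adjustment ran from 0 to 6. It was 0 without young adult M1, old M1 or old M2 (1477, 1050 and 773 of all kept probe sets). The count was 1 without young adult F2 (1502), 2 without young adult M2 (1339) and 6 without young adult F4 (2410). Median centring and no filter moved the median of all probe sets in this comparison to -0.14 and 0.16, from -0.05.

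Animals with the same sex and number in 2 groups share only a number: of 10 such pairs, 6 had deviations correlated above 0.1 (-0.27 to 0.47). No paired analysis was possible for male against female because the numbers are nested in sex. The t-test was not run for the interaction.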
